A study of Mus musculus with 6 samples.

Results

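The genes described here are 8 genes of cholesterol synthesis, chosen by name: Srebf2, which encodes the transcription factor SREBP2, and the sterol genes Insig1, Hmgcs1, Idi1, Fdps, Fdft1, Sqle and Lss, which are known SREBP2 targets. Their symbols were matched through the GENCODE mouse annotation to the Ensembl gene identifiers of the deposited tables. The 8 genes were found among 55401 listed genes, and all 8 were among the 14156 genes tested, those with a mean of at least 0.5 TPM over the libraries.

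The study examined RBBP4 and RBBP7, closely related histone-binding proteins shared by several chromatin complexes, and this series profiled poly(A) RNA of 46C mouse embryonic stem cells (mESCs) in which either was overexpressed. There were 3 groups of 2 libraries. The control cells stably expressed the biotin tag alone, the Rbbp4 OE cells stably expressed biotin-tagged Rbbp4, and the Rbbp7 OE cells stably expressed biotin-tagged Rbbp7. The methods of the study describe 46C lines of these kinds that first received the BirA biotin ligase with a V5 tag by lentivirus under blasticidin, and then a lentiviral FLAG-Avitag vector, empty or with either gene, under puromycin. The libraries were taken to come from those lines, in which ligase and drug selection are shared with the controls, although the sample labels name the tag alone. All cells grew without feeders on gelatin, in medium with fetal bovine serum, LIF and the inhibitors Chir99021 and PD0325901. The promoter that drove the transgenes, and whether a line was a clone or a pool, are not given in the sources used here. No source used here says that the 2 libraries of a group came from separate cultures, so the p-values measure the spread between these libraries, which may be technical.

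Cholesterol is built from acetyl-CoA through mevalonate, isoprenoid diphosphates, squalene and lanosterol. When sterols are low in the endoplasmic reticulum, SCAP carries SREBP2 to the Golgi, where it is cut, and the released fragment switches on the genes of the pathway. When sterols are high, INSIG proteins hold SCAP and SREBP2 back. Serum contains lipoproteins, so cells grown in it can take up cholesterol as well as make it.

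Expression is given in TPM, a length-scaled share of the transcripts of a library, so levels of different genes can be set side by side. Sequencing depth is not kept in TPM and is unknown here, so no counting interval is given. Between 12330 and 12698 genes per library had at least 1 TPM. The median absolute log2 difference over tested genes was 0.121 to 0.178 within groups and 0.182 to 0.29 between groups, and no pair of libraries had the same TPM at more than 1.74% of genes. Rbbp4 rose from 146.02 and 147.00 TPM in control to 269.97 and 271.20 TPM in Rbbp4 OE (limma adjusted p = 0.00173), and Rbbp7 rose from 238.55 and 237.14 TPM to 724.74 and 748.06 TPM in Rbbp7 OE (limma adjusted p = 2.27e-04). All 10 stem cell markers were at 49.3 TPM or more in every library. At a limma adjusted p under 0.05, 3 of them fell in Rbbp4 OE (Nanog by 0.23, Fgf4 by 0.45 and Tfcp2l1 by 0.52 on the log2 scale). Beside them, 8.07% of all tested genes were lower, and 13.3% of those with a mean of at least 10 TPM. In the same group 2 rose (Pou5f1 by 0.25 and Utf1 by 0.46), against 3.29% of all tested genes. In Rbbp7 OE Utf1 rose by 0.54, where 0.198% of all tested genes were higher. Summed fibroblast markers ranged from 6.89 to 8.21 TPM in control, 10.7 to 13.4 TPM in Rbbp4 OE and 10.8 to 18.4 TPM in Rbbp7 OE, with Postn and Lum listed at 0 throughout and 4 of 8 under 1 TPM in all libraries. Thy1 rose by 0.96 in Rbbp4 OE (limma adjusted p = 0.0192), and Col3a1 was at 6.39 TPM in 1 Rbbp7 OE library and 0.06 TPM in the other. Summed trophoblast markers ranged from 46.2 to 49.3 TPM, 59.8 to 65.6 TPM and 63.5 to 67.6 TPM in the same order. Most of this sum was Tfap2c, Krt8 and Eomes. In Rbbp4 OE Tfap2c rose by 0.44 (limma adjusted p = 0.0385), while Krt8 at 0.50 and Eomes at 0.41 did not pass. In Rbbp7 OE Krt8 at 0.89 (limma adjusted p = 0.0886), Eomes at 0.84 (limma adjusted p = 0.0689) and Tfap2c at 0.25 did not pass. Cdx2 was at -0.52 and Gata3 at -0.54 in Rbbp4 OE and at -0.53 and -0.49 in Rbbp7 OE, none of which passed. For neural markers the sums were 105 to 106 TPM, 121 to 122 TPM and 96.5 to 97.0 TPM. Most of this was Tubb3, at means of 97.9, 114 and 90.3 TPM, and none of the 4 neural markers tested passed with limma. For primitive endoderm markers the sums were 1.06 to 1.51 TPM, 1.41 to 2.49 TPM and 1.88 to 3.33 TPM. In all libraries 2 of 8 trophoblast, 4 of 8 neural and 6 of 8 endoderm markers were under 1 TPM, and Olig2 and Dcx were listed at 0. The part of these marker differences in the results below was not tested.

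SREBP2 binds sterol regulatory elements near the start of its target genes and usually acts there with NF-Y, which reads CCAAT boxes, and with Sp1, which reads GC boxes. Promoter windows of RefSeq (GRCm38.p6, 250 bases before to 50 after the start) were matched for 5 of the 8 genes, namely Srebf2, Insig1, Hmgcs1, Idi1 and Lss. Sqle, Fdps and Fdft1 had no window. The 250 bases before the start of 3 genes are shown, 5′ to 3′ on the gene's own strand. Hmgcs1 (chr13:119690101-119690350) was chosen because it held the classic element TCACNCCAC. Srebf2 (chr15:82147019-82147268) was chosen because it held TCACCCCA, a spelling added after the sequences were seen. Idi1 (chr13:8885356-8885605) was chosen because it had the largest difference between groups among the 8 genes. Insig1, which held the shorter CACNCCAC, is not shown. All 3 sequences shown lie on the plus strand. Capitals mark TCACNCCAC, CACNCCAC or TCACCCCA, which overlap one another, and CCAAT, on either strand, where ATTGG is CCAAT read from the other strand.
Hmgcs1: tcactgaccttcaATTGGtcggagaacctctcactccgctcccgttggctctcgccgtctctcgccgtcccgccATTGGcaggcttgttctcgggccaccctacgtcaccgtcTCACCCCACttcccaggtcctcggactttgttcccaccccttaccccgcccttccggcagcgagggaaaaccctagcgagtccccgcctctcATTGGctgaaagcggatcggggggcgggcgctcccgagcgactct
Srebf2: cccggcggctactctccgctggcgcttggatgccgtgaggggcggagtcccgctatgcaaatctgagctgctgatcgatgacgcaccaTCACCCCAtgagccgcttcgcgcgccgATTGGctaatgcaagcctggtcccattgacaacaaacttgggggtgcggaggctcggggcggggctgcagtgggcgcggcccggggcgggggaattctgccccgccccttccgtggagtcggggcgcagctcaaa
Idi1: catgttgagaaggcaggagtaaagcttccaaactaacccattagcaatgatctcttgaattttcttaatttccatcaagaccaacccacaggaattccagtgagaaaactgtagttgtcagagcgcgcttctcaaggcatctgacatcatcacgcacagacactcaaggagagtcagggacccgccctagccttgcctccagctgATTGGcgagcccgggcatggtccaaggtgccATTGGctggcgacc

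Hmgcs1 held the element TCACNCCAC at -137 from the start, with ATTGG at -237, -176 and -45. Srebf2 held TCACCCCA at -162, followed by ATTGG at -135. Idi1 held ATTGG at -45 and -14 and no match to any of the 3 element spellings in its window. Over the full windows, TCACNCCAC was in 1 of the 5 genes and in 1.24% of all 32851 windows, and the shorter CACNCCAC was in 2 (Hmgcs1 and Insig1) and in 6.24% of windows. The spelling TCACCCCA, added after the sequences were seen, was in 2 (Hmgcs1 and Srebf2) and in 1.56% of windows. CCAAT was in all 5 genes and in 37.4% of windows, and the GC box GGGCGG was in all 5 and in 35.7% of windows, both counted on either strand. A match is a description of letters and not a measured binding site.

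The central comparison asked whether these genes differed between the overexpression groups and the tag-only control. Of the 8 genes, 4 were lower in Rbbp4 OE than in control at a limma adjusted p under 0.05 (Idi1, Lss, Insig1 and Sqle) and none was higher, against 8.07% of all tested genes lower and 3.29% higher. Among the 7158 tested genes with a mean of at least 10 TPM, a range that holds all 8, 13.3% were lower. In Rbbp7 OE none of the 8 passed in either direction with limma, against 0.487% of all tested genes (0.419% lower among those of at least 10 TPM), and 2 had an unadjusted p under 0.05, against 15.4% of tested genes. The median log2 fold change over the 8 genes was -0.27 in Rbbp4 OE and -0.13 in Rbbp7 OE, beside -0.08 and -0.0037 over all tested genes. In Rbbp4 OE, 71.0% of all calls were lower, but 52.0% after scaling by median of ratios and 54.8% after quantile normalization, and with either scaling 2 of the 8 genes (Idi1 and Lss) passed. Those scalings called 10% and 10.6% of all tested genes. The count was 1 with the replicate number as a block, which called 6.36%. With 1 library left out, most calls were lost in most fits, among the 8 genes and over all genes. The log2 fold change then ranged from -1.23 to -1.16 for Idi1 and from -0.59 to -0.36 for Lss. For Insig1 it was -0.41 to -0.31 and for Sqle -0.39 to -0.24.

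**Figure D1:**
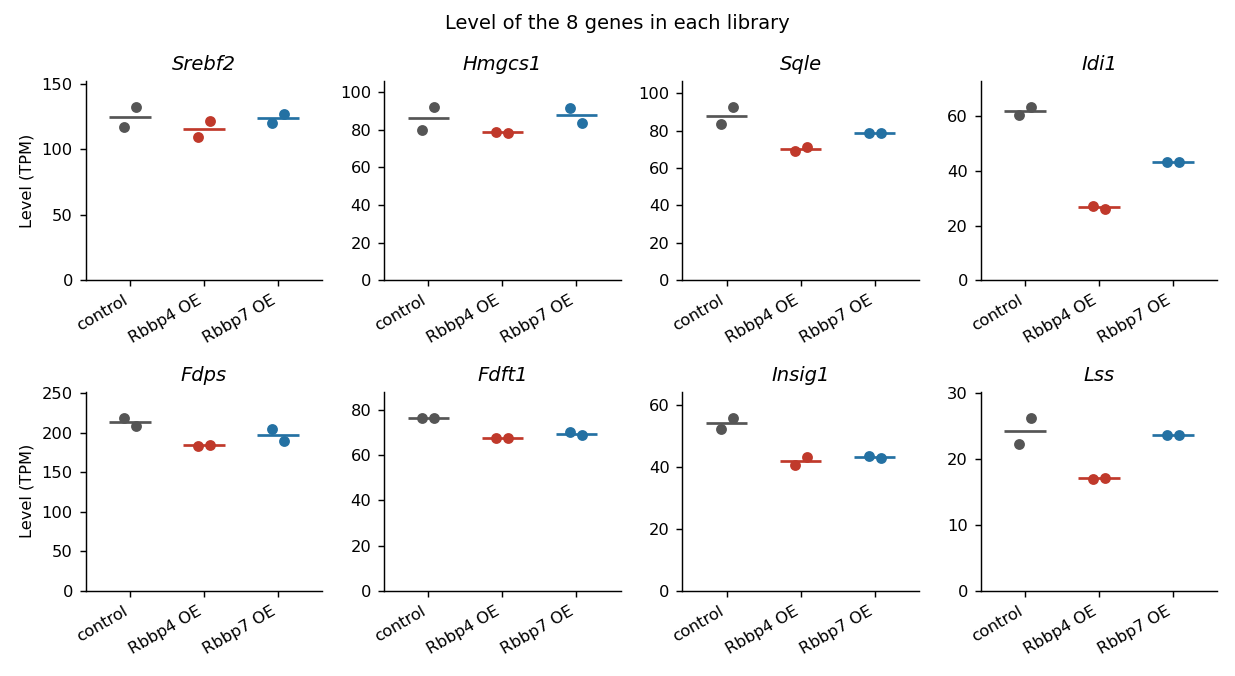
TPM of each of the 8 genes in every library, with 1 panel per gene. Points are libraries and lines are the mean of the 2 libraries of a group, and Idi1 is the gene whose 3 groups stand furthest apart, at means of 62.1, 43.3 and 26.6 TPM in control, Rbbp7 OE and Rbbp4 OE.

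Srebf2 (ENSMUSG00000022463.8, GRCm38 chromosome 15, 82147181 to 82205379), the regulator of the pathway, had 116.70 and 132.23 TPM in the controls, 109.59 and 121.16 TPM with Rbbp4 OE, and 120.01 and 126.87 TPM with Rbbp7 OE. The 3 groups overlapped. Its log2 fold change was -0.11 in Rbbp4 OE (95% interval -0.32 to 0.10, limma adjusted p = 0.451) and -0.01 in Rbbp7 OE (95% interval -0.22 to 0.20, limma adjusted p = 0.980), so a difference of either sign within these intervals could not be resolved with 2 libraries a group. TPM reports the mRNA alone, not the cleavage of SREBP2, by which sterols act on it.

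Insig1 (ENSMUSG00000045294.11, chromosome 5, 28071363 to 28078662) encodes the endoplasmic reticulum protein that retains SCAP and is itself an SREBP2 target. It had 52.27 and 55.93 TPM in the controls, 40.77 and 43.25 TPM with Rbbp4 OE, and 43.64 and 42.85 TPM with Rbbp7 OE. Both overexpression groups lay below the controls without overlap, and they overlapped each other. Insig1 fell by 0.36 on the log2 scale in Rbbp4 OE (SE 0.074, limma adjusted p = 0.0348), and it passed in 7 of 17 alternative settings. In Rbbp7 OE its log2 fold change was -0.32 (95% interval -0.50 to -0.14), which did not pass (limma adjusted p = 0.154). The direct difference between the overexpression groups was -0.04 (95% interval -0.22 to 0.14, limma adjusted p = 0.795).

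Idi1 (ENSMUSG00000058258.14, chromosome 13, 8885501 to 8892451), the isomerase that interconverts isopentenyl and dimethylallyl diphosphate, differed most. It had 60.70 and 63.47 TPM in the controls, 27.30 and 25.96 TPM with Rbbp4 OE, and 43.46 and 43.12 TPM with Rbbp7 OE. Rbbp4 OE libraries were lowest, Rbbp7 OE libraries lay between and controls were highest, with no overlap. The mean was 42.9% of control in Rbbp4 OE and 69.7% in Rbbp7 OE. Because the samples are bulk RNA, fewer cells with Idi1 mRNA and less Idi1 mRNA per cell cannot be told apart, here or for the genes that follow.

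Idi1 fell by 1.19 on the log2 scale in Rbbp4 OE (SE 0.071, 95% interval -1.37 to -1.02, limma adjusted p = 0.00244), the 110th lowest fold change of 14156 genes. It was the only one of the 8 genes past the thresholds of the study, an adjusted p under 0.01 with a fold over 2, which 0.516% of tested genes passed in this comparison, 0.0353% in Rbbp7 OE and 0.0494% between the overexpression groups. In Rbbp7 OE its log2 fold change was -0.51 (95% interval -0.68 to -0.34, limma adjusted p = 0.0580), just outside the threshold. The direct test of Rbbp4 OE against Rbbp7 OE gave -0.68 (95% interval -0.85 to -0.51, limma adjusted p = 0.0365), where 0.304% of all tested genes passed, 0.127% lower and 0.177% higher. With Idi1, 2 of the 8 genes had an unadjusted p under 0.05 in this comparison, against 19.0% of tested genes. Over 17 alternative settings the Rbbp4 OE fold change ranged from -1.23 to -1.09 and passed in all 17, whereas the direct test passed in 7 and in none of the 6 fits that left out a library (adjusted p 0.0771 to 0.232).

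The annotated Idi1 copies Gm13502, identical over 684 aligned bases, and Gm35570, 97.7% identical over 681, were at or near 0 TPM. Of the 5 tested protein-coding genes within 1000 kb of Idi1, 1 fell in Rbbp4 OE, against 8.07% of all tested genes lower. This neighbour, Wdr37, was at -0.50 on the log2 scale (limma adjusted p = 0.0496), and the others did not pass. This neighbourhood was chosen after the values were seen. The median of the 5 was -0.38 in Rbbp4 OE and -0.07 in Rbbp7 OE, beside -0.08 and -0.0037 over all tested genes.

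Among the other isoprenoid enzymes, Hmgcs1 (ENSMUSG00000093930.2, chromosome 13, 119690379 to 119708260), which makes HMG-CoA, had 80.04 and 92.19 TPM in the controls, 78.99 and 78.38 TPM with Rbbp4 OE, and 91.80 and 83.82 TPM with Rbbp7 OE. The Rbbp4 OE libraries were below both controls, and the Rbbp7 OE libraries lay between them. Its log2 fold changes were -0.13 (95% interval -0.34 to 0.09, limma adjusted p = 0.392) and 0.03 (95% interval -0.18 to 0.24, limma adjusted p = 0.918).

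Fdps (ENSMUSG00000059743.12, chromosome 3, 89093588 to 89101959), which makes farnesyl diphosphate, had 218.97 and 208.62 TPM in the controls, 183.58 and 184.32 TPM with Rbbp4 OE, and 204.54 and 189.06 TPM with Rbbp7 OE. The groups were ordered like those of Idi1 and did not overlap. Its log2 fold change of -0.22 in Rbbp4 OE did not pass (95% interval -0.36 to -0.07, limma adjusted p = 0.0684), and neither did -0.12 in Rbbp7 OE (limma adjusted p = 0.401). Idi1 and Fdps catalyse consecutive steps, and the ratio of their TPM was 0.277 and 0.304 in the controls, 0.149 and 0.141 with Rbbp4 OE, and 0.212 and 0.228 with Rbbp7 OE. The ratio, taken within a library and so independent of its scaling, kept the same order without overlap.

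Fdft1 (ENSMUSG00000021273.11, chromosome 14, 63145150 to 63179578), squalene synthase, stands at the step that commits farnesyl diphosphate to sterols. It had 76.61 and 76.62 TPM in the controls, 67.54 and 67.58 TPM with Rbbp4 OE, and 70.11 and 69.14 TPM with Rbbp7 OE. The libraries of a group were close and the groups did not overlap, yet the log2 fold changes of -0.18 (limma adjusted p = 0.0960) and -0.14 (limma adjusted p = 0.335) did not pass. Fdft1 shares 774 bases with Ctsb on the opposite strand, 20.9% of its longest transcript. Whether reads were counted by strand is not given in the sources used here, so reads of the shared part cannot be told apart, and Ctsb itself was at 89.91 and 86.54 TPM in the controls and at 61.24 and 66.09 TPM with Rbbp4 OE.

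Sqle (ENSMUSG00000022351.14, chromosome 15, 59315077 to 59331192), squalene epoxidase, a rate-limiting oxygenase of the sterol branch, had 83.28 and 92.58 TPM in the controls, 69.20 and 71.37 TPM with Rbbp4 OE, and 78.93 and 78.91 TPM with Rbbp7 OE. The 3 groups followed the order of Idi1 without overlap. Sqle fell by 0.32 on the log2 scale in Rbbp4 OE (SE 0.072, limma adjusted p = 0.0437). It passed in 6 of the 17 alternatives, and after the correction for GC content and length, added once values had been seen, it was at -0.18 (limma adjusted p = 0.113). In Rbbp7 OE the log2 fold change was -0.15 (95% interval -0.33 to 0.02, limma adjusted p = 0.381).

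Lss (ENSMUSG00000033105.12, chromosome 10, 76531588 to 76557138), lanosterol synthase, closes the first sterol ring system. It had 22.25 and 26.27 TPM in the controls, 17.01 and 17.10 TPM with Rbbp4 OE, and 23.61 and 23.57 TPM with Rbbp7 OE. The Rbbp4 OE libraries were low, and the Rbbp7 OE libraries lay between the controls. Lss fell by 0.48 on the log2 scale in Rbbp4 OE (SE 0.10, limma adjusted p = 0.0391). It passed in 8 of the 17 alternatives, and after the GC and length correction it was at -0.31 (limma adjusted p = 0.0715). It was at -0.03 in Rbbp7 OE (limma adjusted p = 0.921), and the direct difference of -0.45 did not pass (95% interval -0.70 to -0.19, limma adjusted p = 0.130).

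**Figure D2:**
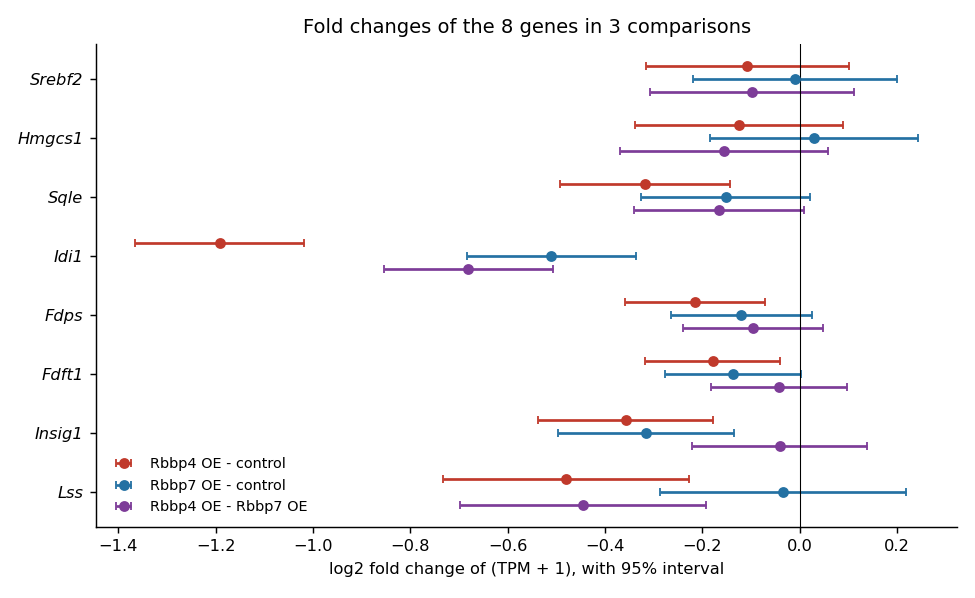
Log2 fold change of the 8 genes with 95% interval in the 3 comparisons. The Rbbp4 OE values against control range from -1.19 for Idi1 to -0.11 for Srebf2, all below 0, and the Rbbp7 OE values range from -0.51 to 0.03.

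The libraries of Rbbp4 OE were below both controls for 7 of the 8 genes, against 37.1% of all tested genes and 43.9% of those with a mean of at least 10 TPM, and above both for none, against 20.8%. For Rbbp7 OE the number was 5 of 8, against 23.4% and 27.3%, and none was above both, against 21.2%. Both comparisons used the same controls, so their values are not independent. The order control above Rbbp7 OE above Rbbp4 OE with no overlap was a pattern picked after the values were seen. It was present in Idi1, Fdps, Fdft1 and Sqle and in 10.2% of all tested genes. The reverse order was in none of the 8 and in 3.86% of tested genes. Neither share was computed for genes with a mean of at least 10 TPM, the range that holds all 8. Rbbp4 OE was below Rbbp7 OE without overlap for 6 of 8, against 38.6% of tested genes and 45.6% of those with a mean of at least 10 TPM, and above it for none, against 16.1%.

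Summed over the 8 genes, the level reached 710.82 and 747.91 TPM in the controls, 593.98 and 609.12 TPM with Rbbp4 OE, and 676.10 and 657.34 TPM with Rbbp7 OE. Without Idi1 the sums were 650.12 and 684.44 TPM, 566.68 and 583.16 TPM, and 632.64 and 614.22 TPM, and the groups still did not overlap. Ordered by mean control level, Fdps was highest at 214 TPM ± 7.3 (SD, n = 2), followed by Srebf2 at 125 TPM ± 11 (SD, n = 2), Sqle at 87.9 TPM ± 6.6 (SD, n = 2), Hmgcs1 at 86.1 TPM ± 8.6 (SD, n = 2), Fdft1 at 76.6 TPM ± 0.0071 (SD, n = 2), Idi1 at 62.1 TPM ± 2.0 (SD, n = 2), Insig1 at 54.1 TPM ± 2.6 (SD, n = 2) and Lss at 24.3 TPM ± 2.8 (SD, n = 2). Sqle and Hmgcs1, which are neighbours in this order, did not differ beyond their spread, and the means of Hmgcs1 and Fdft1 differed by about the SD of Hmgcs1. In Rbbp4 OE, Idi1 had moved below Insig1, at 26.6 TPM ± 0.95 (SD, n = 2) against 42.0 TPM ± 1.8 (SD, n = 2).

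The genes outside the pathway lists whose pattern was most like the mean of the 8, by Pearson correlation of log2(TPM + 1) over the 6 libraries, were Nup50 (r = 0.998), Klhl12 (r = 0.998), Fam49b (r = 0.998), Glo1 (r = 0.998) and Edc4 (r = 0.997). These are the highest of 8956 genes over 6 points in 3 groups and are given as a description. Among the 8 themselves, the correlation with the mean of the others was 0.991 for Sqle and 0.947 for Idi1, and lowest for Srebf2 at 0.604 and Hmgcs1 at 0.644.

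Of 13 other enzymes of the pathway examined here, 5 fell in Rbbp4 OE, namely Acat2, Pmvk, Mvd, Lbr and Msmo1, and none rose, against 8.07% of all tested genes lower (13.3% of those with a mean of at least 10 TPM) and 3.29% higher. The median log2 fold change of the 13 was -0.39, beside -0.08 over all tested genes. In Rbbp7 OE none of the 13 passed with limma, 7 had an unadjusted p under 0.05 (15.4% of all tested genes did), and the median was -0.25.

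Mvd, which makes isopentenyl diphosphate, the substrate of IDI1, had 87.74 and 94.80 TPM in the controls, 60.82 and 58.18 TPM with Rbbp4 OE, and 68.72 and 65.54 TPM with Rbbp7 OE. It fell by 0.61 on the log2 scale in Rbbp4 OE (SE 0.070, limma adjusted p = 0.00949), as did Pmvk, the kinase before it, by 0.61 (limma adjusted p = 0.0106). Msmo1 (-0.39, limma adjusted p = 0.0255), Lbr (-0.56, limma adjusted p = 0.0345) and Acat2 (-0.34, limma adjusted p = 0.0430), which begins the pathway and shares near-identical stretches with Tcp1 and Acat3, so that its level is uncertain, also passed. Of the 5 enzymes that fell, 3 passed after scaling by median of ratios (Lbr, Mvd and Pmvk) and 2 with the replicate number as a block (Mvd and Pmvk). With 1 library left out, most calls were lost in most fits, here and over all genes. The log2 fold change then ranged from -0.66 to -0.55 for Mvd, -0.67 to -0.55 for Pmvk and -0.73 to -0.39 for Lbr. For Msmo1 it was -0.41 to -0.38 and for Acat2 -0.41 to -0.26.

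Cyp51 (-0.42, limma adjusted p = 0.0794), Dhcr7 (-0.56, limma adjusted p = 0.0719) and Nsdhl (0.26, limma adjusted p = 0.0899) did not pass.

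**Figure D3:**
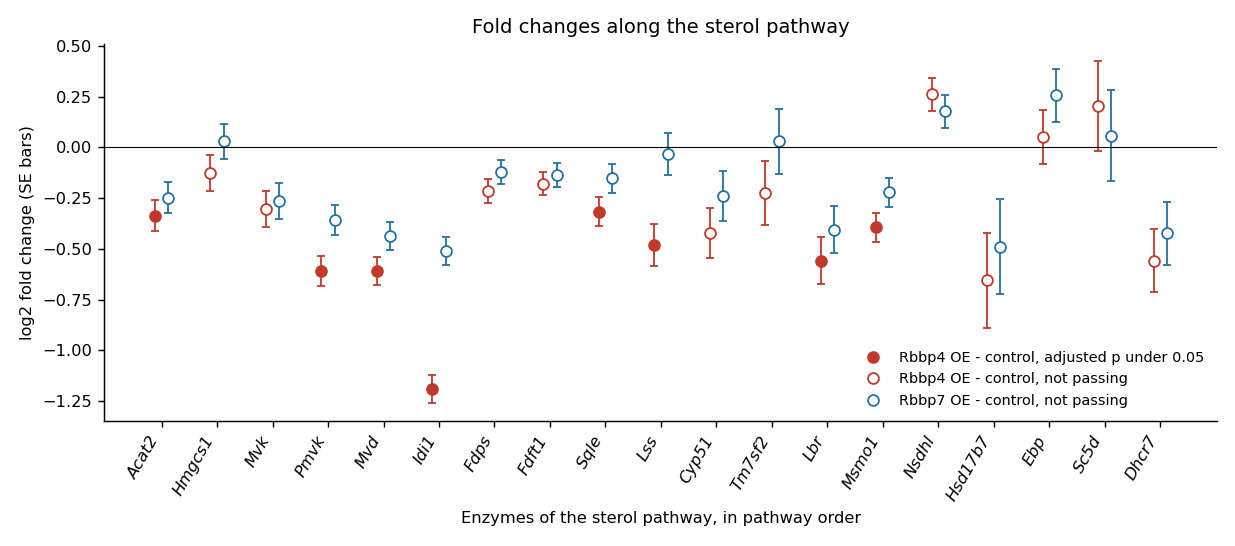
Log2 fold change against control of the 13 enzymes and of the members of the 8 genes that are enzymes, in pathway order, for Rbbp4 OE and Rbbp7 OE, with bars of 1 SE and filled points for values that passed. Among the 13, the Rbbp4 OE values run from -0.66, a value that did not pass, to 0.26 for Nsdhl.

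Of the genes that control SREBP processing and the turnover of pathway enzymes, 9 were tested. With limma 0 passed in Rbbp4 OE, against 11.4% of all tested genes, and 0 in Rbbp7 OE, against 0.487%. Little can be read from 0 calls among 9 genes. In Rbbp4 OE 5 had an unadjusted p under 0.05 (29.6% of all tested genes did). The median log2 fold change there was -0.28, beside -0.08 over all tested genes. In Rbbp7 OE 3 had one (15.4% of all tested genes did), and the median was -0.21, beside -0.0037. Scap, the escort of SREBP2, was at 0.09 in Rbbp4 OE (limma adjusted p = 0.720), and Srebf1, the homolog with a larger part in fatty acid synthesis, was at -0.28 (limma adjusted p = 0.120).

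Of 10 genes of sterol uptake and transport examined here, 8 were tested and 3 fell in Rbbp4 OE (Stard4, Npc2 and Tmem97), against 8.07% of all tested genes and 13.3% of those with a mean of at least 10 TPM. None rose past the threshold in Rbbp4 OE, against 3.29% of all tested genes. Both Rbbp4 OE libraries were above both controls for 3 of the 8, against 20.8% of all tested genes. They were below both for 4, against 37.1%. Over the 8, the median was -0.22 on the log2 scale with Rbbp4 OE and -0.13 with Rbbp7 OE. Stard4, a sterol carrier, was at -0.76 (limma adjusted p = 0.0414), Npc2, which hands cholesterol out of lysosomes, at -0.47 (limma adjusted p = 0.0210) and Tmem97 at -0.30 (limma adjusted p = 0.0428). In Rbbp7 OE none passed with limma, and 3 had an unadjusted p under 0.05, against 15.4% of all tested genes. Of the 3 that fell, 1 (Stard4) passed after scaling by median of ratios and 1 (Npc2) with the replicate number as a block. With 1 library left out, most calls were lost in most fits, here and over all genes. The log2 fold change then ranged from -0.94 to -0.59 for Stard4, -0.52 to -0.42 for Npc2 and -0.38 to -0.23 for Tmem97.

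Fatty acid synthesis, which SREBP1 serves, had a list median of -0.49 in Rbbp4 OE and -0.18 in Rbbp7 OE. Of 12 genes, 5 fell in Rbbp4 OE and none rose, against 8.07% of all tested genes lower (13.3% of those with a mean of at least 10 TPM) and 3.29% higher. They were Acaca, the rate-limiting carboxylase, at -0.83 (limma adjusted p = 0.0123), Scd1 at -0.85 (limma adjusted p = 0.0103), Scd2 at -0.65 (limma adjusted p = 0.0255), Elovl6 at -0.63 (limma adjusted p = 0.0145) and Acly at -0.57 (limma adjusted p = 0.0238). Scd1 and Scd2 are 95.5% identical over 623 bases, so their split is uncertain. Acaca shares 6118 bases, 64.3% of its longest transcript, with the annotated copy Gm5182 at 99.2% identity, so its level is uncertain too. Gm5182 itself was at 0.68 to 2.25 TPM. Fasn, the synthase, was at 0.07 (limma adjusted p = 0.379). In Rbbp7 OE none of the 12 passed with limma and 5 had an unadjusted p under 0.05, against 15.4% of all tested genes. All 5 genes that fell in Rbbp4 OE also passed after scaling by median of ratios and with the replicate number as a block. With no filter on low values 3 of them passed (Acaca, Elovl6 and Scd1), where 2.87% of all genes did. In the 2-group fit 0 of the 5 passed, against 1.12% of all tested genes. With 1 library left out, calls were lost in most fits, here and over all genes. The log2 fold change then ranged from -0.88 to -0.79 for Acaca, -0.98 to -0.72 for Scd1 and -0.83 to -0.46 for Scd2. For Elovl6 it was -0.71 to -0.54 and for Acly -0.72 to -0.42.

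**Figure D4:**
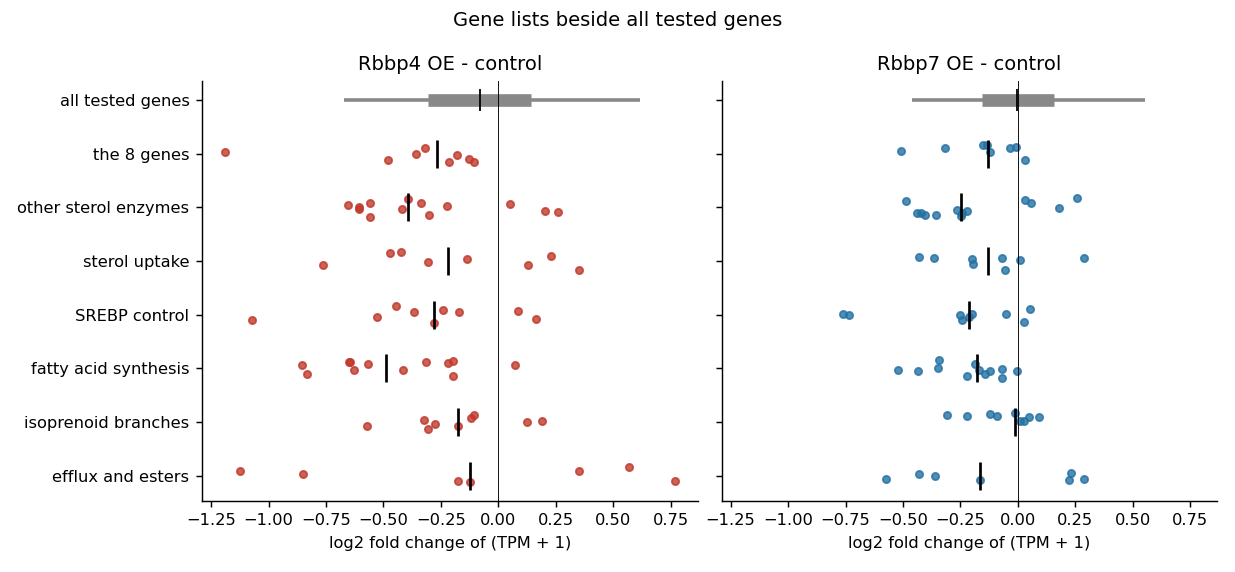
Log2 fold change against control of the genes of each list, with the list median as a tick, in Rbbp4 OE and Rbbp7 OE, and for all tested genes the middle 50% (thick bar) and 90% (thin bar). The medians in Rbbp4 OE are -0.27 for the 8 genes, -0.39 for the other enzymes, -0.28 for SREBP control and -0.22 for sterol uptake. They are -0.49 for fatty acid synthesis, -0.18 for isoprenoid branches and -0.12 for efflux and esters, beside -0.08 for all tested genes.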

How the data were processed

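Poly(A) RNA-seq libraries of 46C mESCs were grouped by their labels into control, Rbbp4 OE and Rbbp7 OE, with 2 libraries each. By the methods of the study, the authors trimmed reads with Trim_galore, aligned them to mm10 with STAR and quantified genes with RSEM on a GENCODE annotation. The TPM values deposited by the authors were used, 1 table per library. TPM are scaled to a fixed total, so a change in abundant genes shifts all others, and depth is unknown.

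Of 55401 genes, 55141 were matched to GENCODE M21 (GRCm38) without the version, 54349 with the same version. The authors used DESeq2 on counts. TPM are not counts, so limma-trend (limma 3.58.1, R 4.3.3) was fitted to log2(TPM + 1) over the 14156 genes whose mean reached 0.5 TPM, all 3 groups in 1 fit with no covariate (3 residual and 3.103 prior degrees of freedom). All fold changes refer to log2(TPM + 1) and understate those of low genes. Genes passed at a Benjamini-Hochberg adjusted p under 0.05 over all genes tested. Both overexpression groups were compared with control and with each other. Near-identical transcripts were searched with blastn 2.17.0.

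The genes and lists were chosen with earlier results of these data known. The text names the 8 genes, Rbbp4, Rbbp7, Gapdh and Actb, list genes past the threshold, Cyp51, Dhcr7, Scap, Srebf1, Fasn and Scd2, and the 5 genes of most similar pattern with a mean TPM of at least 5. Some genes of the lists are not reported here, and list counts and medians leave them out. Nsdhl, Wdr37, Ctsb, single markers of other cell types and of stem cells, and overlapping or copied genes were added after their values were seen. As alternatives, the fit was repeated with a replicate block, a robust trend, 2 groups at a time, protein-coding genes alone, quantile normalization, scaling by median of ratios, no filter or a minimum mean of 5 TPM, a pseudocount of 0.1 or 5, the thresholds of the study and leaving out each library. A GC and length correction and the motif TCACCCCA were chosen after seeing the data.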

Additional observations from a re-analysis of the deposited data

Results flagged for a closer look

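The effect of the 2 overexpressed genes differed in 3 of the named genes when Rbbp4 OE was tested directly against Rbbp7 OE. Rbbp7 differed by -1.79 on the log2 scale (limma adjusted p = 8.31e-05) and Rbbp4 by 0.91 (limma adjusted p = 0.00192), and these are the overexpressed genes themselves. Idi1 differed by -0.68 (limma adjusted p = 0.0365), with both Rbbp4 OE libraries below both Rbbp7 OE libraries, and of the 8 genes and the 13 other enzymes examined it alone passed in this test. The Idi1 call was lost in 10 of 17 alternative settings, among them all 6 fits without 1 library (limma adjusted p = 0.0771 to 0.232), the replicate block (0.128) and median-of-ratios scaling (0.0550).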

How the results depend on the processing

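In Rbbp4 OE, 4 of the 8 genes passed, beside 11.4% of all tested genes. The count was 1 with no filter on low values (2.87% of all genes) and 1 in the 2-group fit (1.12%). It was 2 under median-of-ratios scaling (10%) and 2 under quantile normalization (10.6%). After correction for GC content and length, added once values had been seen, it was 2 (10.5%). At the thresholds of the study it was 1 (0.516%). Leaving out 1 library lost most calls over all genes in most fits, and the 8 fold changes stayed below 0. In Rbbp7 OE, 0 passed with limma, beside 0.487% of all tested genes, and 2 had an unadjusted p under 0.05, beside 15.4%. The count was 1 with a mean TPM of at least 5 (1.52% of all genes) and 1 with protein-coding genes only (0.823%). With 1 library left out, the Idi1 fold change in Rbbp7 OE ranged from -0.54 to -0.48. In the direct test 1 passed, beside 0.304% of all tested genes. The count was 0 with no filter (0.113%), under median-of-ratios scaling (0.141%), in the 2-group fit (0.0565%) and at the thresholds of the study (0.0494%). In these settings limma gave 2 to 3 at an unadjusted p under 0.05, and 19.0% of tested genes had one in the main fit. With 1 library left out, the direct Idi1 difference ranged from -0.72 to -0.65. The cause was not tested.

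With the replicate number as a block, the count was 1 in Rbbp4 OE, where 6.36% of all tested genes passed. It was 0 in Rbbp7 OE (0.0636%) and 0 in the direct test (0.0636%). In the direct test with the block, limma gave 2 at an unadjusted p under 0.05. Deviations of same-numbered libraries from their group means had correlations of -0.03, 0.03 and -0.03 between groups, so no large common deviation was seen. Whether same-numbered libraries shared a culture or batch is not given in the sources used here.

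Sign changes were all in values that did not pass. Under median-of-ratios scaling the direct difference became 0.000699 for Fdps, 0.0529 for Fdft1, 0.0534 for Insig1, 0.0227 for Gapdh, 0.00723 for Acat2 and 0.0589 for Srebf1. Under quantile normalization it became 0.0118 for Fdft1, 0.0531 for Insig1 and 0.0465 for Srebf1, and in Rbbp7 OE the fold change became 0.0110 for Srebf2 and 0.00405 for Rbbp4, the latter 0.0186 with the GC and length correction. With a library left out, the range was -0.0592 to 0.234 for Scap in Rbbp4 OE. In Rbbp7 OE it was -0.0990 to 0.0798 for Srebf2, -0.0709 to 0.131 for Hmgcs1, -0.149 to 0.0808 for Lss and -0.221 to 0.0809 for Acly. In the direct test it was -0.0830 to 0.000221 for Insig1, -0.272 to 0.00159 for Dhcr7 and -0.115 to 0.0436 for Srebf1. In Rbbp4 OE, over the 17 alternatives, Lss passed in 8, Insig1 in 7 and Sqle in 6, with fold changes below 0 in all 17. With 2 libraries a group, and depth not kept in TPM, smaller differences could not be resolved.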

Other observations

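Genes of sterol efflux and esterification did not move in 1 direction. Of 8 genes listed, 7 were tested and Ch25h was listed at 0. In Rbbp4 OE 2 fell and 1 rose, against 8.07% of all tested genes lower and 3.29% higher. In Rbbp4 OE, Abca1, which exports cholesterol, fell from 2.99 and 4.11 TPM in control to 1.01 and 1.14 TPM, by -1.12 on the log2 scale (SE 0.20, limma adjusted p = 0.0238; -1.62 with a pseudocount of 0.1 and -0.49 with one of 5), and Soat1, which esterifies it, was at -0.85 (limma adjusted p = 0.0414). Apoe, a lipid carrier, rose from 699.49 and 613.32 TPM to 1083.47 and 1154.40 TPM (log2 fold change 0.77, limma adjusted p = 0.00784). All 3 passed after scaling by median of ratios, and 2 (Abca1 and Apoe) with the replicate number as a block. In the 2-group fit and with no filter on low values, Apoe alone passed. With 1 library left out, most calls were lost in most fits, here and over all genes. The log2 fold change then ranged from -1.30 to -0.94 for Abca1, -1.02 to -0.68 for Soat1 and 0.68 to 0.87 for Apoe. In Rbbp7 OE, Apoe had 739.49 and 802.05 TPM and did not pass (limma adjusted p = 0.241). None of the 7 passed with limma in Rbbp7 OE, against 0.487% of all tested genes. An unadjusted p under 0.05 was seen in 2, against 15.4% of all tested genes.

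Of 9 genes of the isoprenoid branches that leave the pathway after farnesyl diphosphate, 2 fell in Rbbp4 OE and none rose, beside 8.07% of all tested genes lower and 13.3% of those with a mean of at least 10 TPM, so little can be read from 2 genes. Nus1, a subunit of the enzyme for dolichol synthesis, was at -0.57 (limma adjusted p = 0.0208) and Fnta, the shared subunit of protein prenyltransferases, at -0.31 (limma adjusted p = 0.0299). The list median was -0.18, beside -0.08 over all tested genes. In Rbbp7 OE none passed with limma, against 0.487% of all tested genes, and the median was -0.01. An unadjusted p under 0.05 was seen in 1, against 15.4% of all tested genes. After scaling by median of ratios Nus1 alone passed in Rbbp4 OE. With 1 library left out, calls were lost in most fits, here and over all genes. The log2 fold change in Rbbp4 OE then ranged from -0.63 to -0.51 for Nus1 and -0.32 to -0.29 for Fnta.

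Of the reference genes, Gapdh was at -0.10 on the log2 scale in Rbbp4 OE (limma adjusted p = 0.0899) and Actb at 0.52 (limma adjusted p = 0.0137).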
